A study of Mus musculus with 17 samples.

Results

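The 35 genes described here encode the machinery of mitosis and cytokinesis. They cover kinases and cyclins of mitotic entry, partners of the anaphase-promoting complex, and spindle checkpoint and chromosomal passenger proteins. They also cover kinetochore proteins, spindle motors, the contractile ring and midzone, and chromosome proteins of dividing cells. They were taken as a list of gene names, and all 35 were found among the 56748 genes of the count table. All 35 also passed the filter on low counts, which left 15196 genes for testing.

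Gene expression was measured by RNA-seq in E11, an established line of mouse podocytes, grown on polydimethylsiloxane, a silicone rubber. The HF group (6 libraries) grew on a high fractal topography derived from tracings of healthy glomerular histology. The RT group (6 libraries) grew on round topography, which is not fractal, and the NT group (5 libraries) on the same material without topography. All groups thus share 1 cell line and 1 substrate material, with no treatment or genetic change named; culture time and what separates one replicate from another are not given in the sources used here. The p-values therefore rest on differences among these libraries alone, and part of that spread may be technical.

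Podocytes are the epithelial cells that cover the glomerular capillaries, and in the adult kidney they rarely divide, whereas a cultured line cycles. Mitosis starts when CDK1 bound to cyclin B is switched on; the kinetochores then attach chromosomes to the spindle, the checkpoint holds the anaphase-promoting complex back until attachment is complete, and the midzone and contractile ring split the cell. Transcripts of these genes accumulate late in the cell cycle. Their transcription is known to run through the MuvB complex with B-MYB and FOXM1, which reads the cell cycle homology region (CHR), and through NF-Y, which binds CCAAT boxes; in resting cells MuvB is part of the repressor complex DREAM.

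The promoters of the 4 members that passed the test in a comparison (Ccnb1, Cenpe, Racgap1 and Nusap1), and of Cdk1, Ube2c and Top2a as examples with both motifs, are shown as the 100 bases before the RefSeq gene start in build GRCm38.p6. Each is written 5′ to 3′ on the strand of its gene. Capitals mark CCAAT boxes (CCAAT or its reverse complement ATTGG) and CHR elements (TTTGAA or its reverse complement TTCAAA) on either strand. A match of one motif may share bases with a match of the other, and a box that runs into its own reverse complement counted as a box in each orientation. The windows are chr13:100786487-100786586 (minus strand) for Ccnb1, chr3:135212463-135212562 (plus) for Cenpe, chr15:99651657-99651756 (minus) for Racgap1 and chr2:119618198-119618297 (plus) for Nusap1. Those of the examples are chr10:69352913-69353012 (minus) for Cdk1, chr2:164769829-164769928 (plus) for Ube2c and chr11:99024190-99024289 (minus) for Top2a.
Ccnb1: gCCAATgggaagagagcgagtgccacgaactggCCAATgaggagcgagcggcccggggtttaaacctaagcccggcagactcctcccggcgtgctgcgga
Cenpe: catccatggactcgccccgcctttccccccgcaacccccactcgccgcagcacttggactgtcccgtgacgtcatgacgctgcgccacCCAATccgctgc
Racgap1: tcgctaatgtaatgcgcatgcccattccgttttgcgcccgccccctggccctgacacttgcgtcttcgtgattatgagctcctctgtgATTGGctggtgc
Nusap1: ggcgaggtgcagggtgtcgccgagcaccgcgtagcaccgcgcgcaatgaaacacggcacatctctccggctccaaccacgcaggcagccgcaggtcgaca
Cdk1: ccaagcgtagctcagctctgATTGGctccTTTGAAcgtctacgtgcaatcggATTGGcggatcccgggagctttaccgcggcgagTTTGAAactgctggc
Ube2c: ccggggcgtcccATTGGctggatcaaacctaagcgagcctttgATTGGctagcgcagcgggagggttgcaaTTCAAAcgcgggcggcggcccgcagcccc
Top2a: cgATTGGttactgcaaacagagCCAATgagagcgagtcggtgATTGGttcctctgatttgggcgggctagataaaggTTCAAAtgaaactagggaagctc

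RefSeq promoters, from 250 bases before to 50 bases after the start, were matched for 31 members; Aurkb, Incenp, Tpx2 and Kif20a had none in the table used. A CCAAT box was found in 25 of the 31 (80.6%), against 41.1% of all 27025 genes with such a promoter and 43% of the 10281 of them tested here. A CHR element was found in 25 (80.6%), against 20.2% of all genes and 14.5% of those tested, and in 22 members (71%) it lay within 50 bases of the start, against 5.72% and 3.83%. Both motifs occurred together in 22 members (71%), against 7.97% of all genes and 5.92% of those tested. In 7 members (22.6%), a pair of CCAAT boxes in 1 orientation started 31 to 33 bases apart, against 0.918% and 1.71%; Ccnb1, Cdk1 and Ube2c, printed above, are among them.

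Ccnb1, Bub1 and Cenpe held CCAAT boxes and no TTTGAA or TTCAAA in this window, and Ndc80, Kif2c and Anln held a CHR element and no CCAAT box. Racgap1 held 1 CCAAT box and a CHR element at positions 6 to 11 after the start, outside the printed stretch. Birc5, Nuf2 and Nusap1 held neither string of letters. The 4 members that passed the test thus differ in which of these exact strings they hold, and other forms of the motifs were not searched. These matches are descriptions of sequence, not measured binding.

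**Figure D1:**
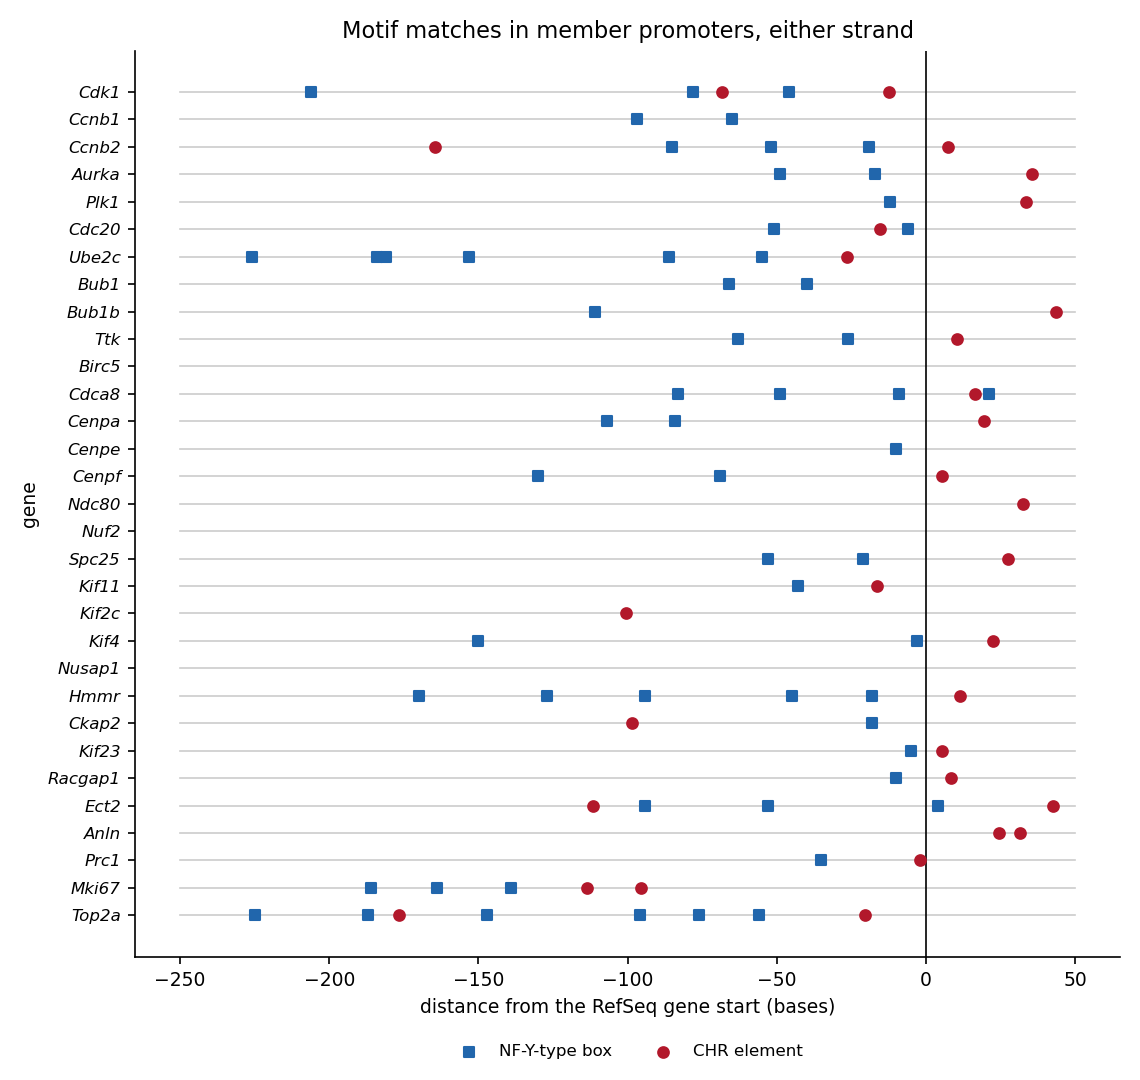
Positions of motif matches in the promoters of 31 members, on either strand, as distance from the RefSeq gene start in bases (first promoter of Ect2 and Prc1, which have more than 1). Squares are CCAAT boxes, bound by NF-Y, and circles are CHR elements; most boxes lie within the 100 bases before the start and most CHR elements within 50 bases of it on either side.

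Library totals lay between 14.9 and 24.1 M counts, and the members' counts from 41 in 1 library (Ttk) to 1319 (Mki67). Podocyte genes were present (Synpo averaged 263 ± 8.18 CPM, counts scaled to library size, on HF, 274 ± 5.87 CPM on RT and 282 ± 24.7 CPM on NT; SD, n = 6, 6 and 5), with Nphs1 low at averages of 5.03, 4.66 and 3.96 CPM and Tcf21 listed at 0 in all 17. The tubule gene Cdh16 stood at 976 ± 40.6, 976 ± 19.2 and 977 ± 37.8 CPM, so the libraries hold both podocyte and tubule transcripts. The defining endothelial genes Kdr and Tie1 and the immune genes Adgre1 and Cd3e were listed at 0 in all 17, but 1 gene of each list passed the filter on low counts. The endothelial Ehd3 averaged 77.5 ± 3.40 CPM on HF, 74.9 ± 2.72 CPM on RT and 76.4 ± 2.22 CPM on NT, and the macrophage gene Cd68 averaged 2.10 ± 0.653, 1.501 ± 0.426 and 1.64 ± 0.251 CPM (SD, n = 6, 6 and 5). Neither passed the test in any comparison.

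Libraries within the HF group stood apart in these genes. The summed level of the 35 members was 619, 565, 724, 651, 559 and 471 CPM in HF 1 to HF 6. It was 587, 557, 585, 636, 582 and 578 CPM in RT 1 to RT 6, and 501, 545, 496, 486 and 564 CPM in NT 1 to NT 5. HF 3 was the highest and HF 6 the lowest of all 17 libraries. The group averages were 598 ± 87.0 CPM on HF, 587 ± 25.9 CPM on RT (SD, n = 6 each) and 518 ± 33.9 CPM on NT (SD, n = 5). HF overlapped both other groups, while RT and NT overlapped only through RT 2 and NT 5. Counts of calls in HF against NT, the summed level and the spread on HF are given below also without HF 3 and HF 6, which were singled out after their values were seen.

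**Figure D2:**
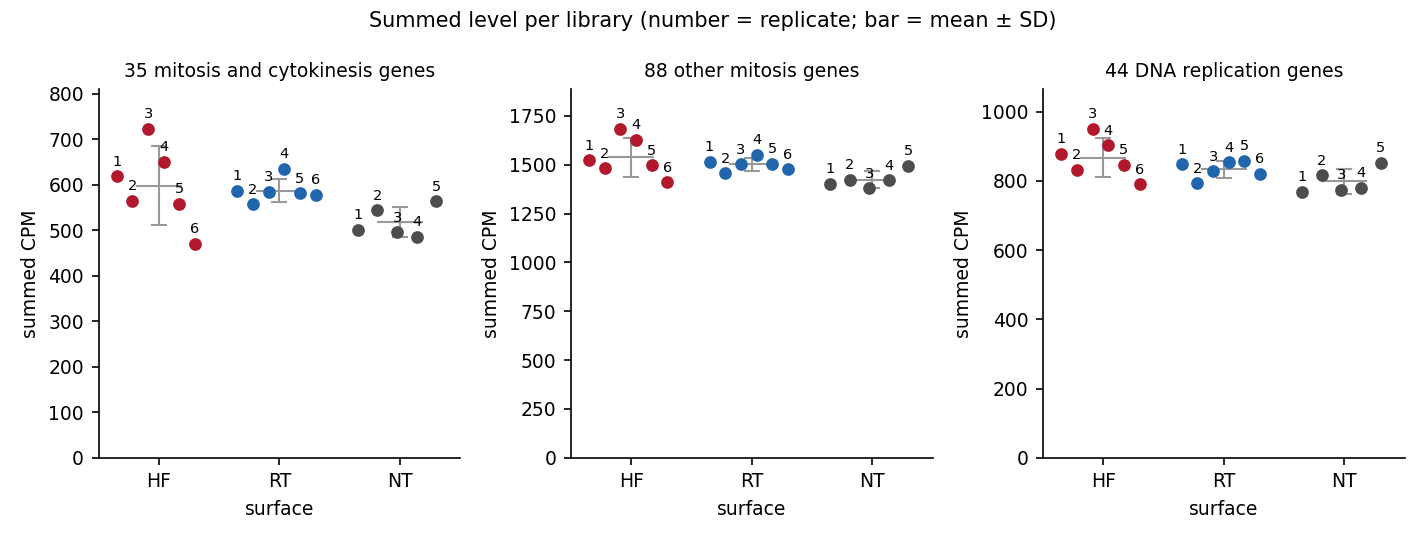
Summed level in CPM (y axis, from 0) per library on HF, RT and NT for the 35 members, 88 other mitosis genes and 44 DNA replication genes; each point is a library with its replicate number, and grey bars give mean ± SD. In each panel HF 3 is the highest library, and HF runs from 471 to 724 CPM for the members, against 557 to 636 CPM on RT and 486 to 564 CPM on NT.

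On the high fractal surface, against no topography, all 35 members had a positive log2 fold change, and 3 of them passed the test: Ccnb1, Cenpe and Racgap1, which were 1.34, 1.21 and 1.203 times as high. No member was lower, at an adjusted or an unadjusted p under 0.05. The 3 of 35 stand beside 1.5% of all genes tested that were higher at an adjusted p under 0.05 (edgeR's quasi-likelihood test, Benjamini-Hochberg adjustment) and 0.829% that were lower. At an unadjusted p under 0.05, 15 of the 35 were higher, beside 7.61% of all genes. The positive fold changes of 35 of 35 stand beside 49% of all genes. The members move together within a library, so these counts are not 35 independent observations of the surface. The median log2 fold change of the members was 0.20, against -0.00253 over all genes tested, and their range ran from 0.02 (Incenp) to 0.49 (Aurkb). The groups did not overlap for 1 member, Cenpe, beside 1.25% of all genes that were higher without overlap. Because RNA came from whole cultures, more cells in mitosis and more RNA per mitotic cell cannot be told apart.

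Whether these 3 members passed changed with the libraries included. None of the 35 passed without HF 3, without NT 3 or without NT 4, 1 passed without HF 4 (Cenpe), and 9 passed without HF 6 (Anln, Bub1b, Ccnb1, Cdk1, Cenpe, Kif11, Kif23, Racgap1 and Top2a). In the fits that left out 1 library and lost a call, the log2 fold change was still 0.36 to 0.41 for Ccnb1, 0.23 to 0.27 for Cenpe and 0.21 to 0.27 for Racgap1, against 0.42, 0.28 and 0.27 with all libraries. Without HF 3 and HF 6 together, Ccnb1 (adjusted p = 0.0197) and Racgap1 (0.0451) passed and Cenpe did not (0.0791). Those libraries were picked as the extremes of these same genes, so leaving them out narrows the members' spread by choice. The adjusted p of that fit are therefore no support for the calls. The log2 ratio of the summed level, HF over NT, was 0.21 with all libraries, 0.14 without HF 3, 0.27 without HF 6 and 0.21 without both.

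On round topography, against no topography, 34 of the 35 members had a positive log2 fold change, beside 49.1% of all genes, and 2 passed the test: Cenpe and Nusap1, both 1.27 times as high. None was lower, and Cdca8 was the member with a negative value (-0.16 ± 0.12, SE). The 2 of 35 stand beside 2.53% of all genes that were higher and 1.44% that were lower. At an unadjusted p under 0.05, 12 members were higher, beside 9.11% of all genes. The median over the members was 0.17 on the log2 scale. Here too the members are not independent of each other, so their counts are not separate observations. The groups did not overlap for 5 members (Cenpe, Nusap1, Kif20a, Racgap1 and Top2a), beside 2.18% of all genes. For Racgap1 the margin was very small, with RT 2 at 25.33 CPM and NT 2 at 25.32 CPM.

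Cenpe passed in RT against NT without each of the 17 libraries in turn (highest adjusted p 0.0106). Nusap1 did not pass in 8 of those 17 fits: without RT 2 (adjusted p = 0.0573), RT 3 (0.0553), RT 4 (0.0678), RT 5 (0.0812), NT 1 (0.0561), NT 2 (0.0549), NT 3 (0.0597) or NT 4 (0.110). Fits without HF 3 and HF 6, whose libraries enter through the shared estimate of spread, called 4 members (Cenpe, Cenpf, Nusap1 and Racgap1). Leaving out these extremes narrows the members' spread by choice, so that count is no support for the calls either. The HF and RT comparisons with NT use the same 5 NT libraries, so their values are not independent of each other.

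High fractal against round topography, which asks whether the fractal pattern adds to topography as such, gave no call among the 35 members. Of all genes tested, 0.132% were higher and 0.079% lower on HF. No member reached an unadjusted p under 0.05 either, beside 3.74% of all genes higher and 4.26% lower, and DESeq2 and limma voom also called 0 members. Of the 35, 21 had a positive log2 fold change, beside 49.6% of all genes. Values ran from -0.16 ± 0.11 (Nuf2) to 0.19 ± 0.11 (Cdca8; SE), with a median of 0.04. Without HF 3 the log2 ratio of the summed level, HF over RT, was -0.04, without HF 6 it was 0.09, and with all libraries it was 0.03, so the sign turned without HF 3.

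**Figure D3:**
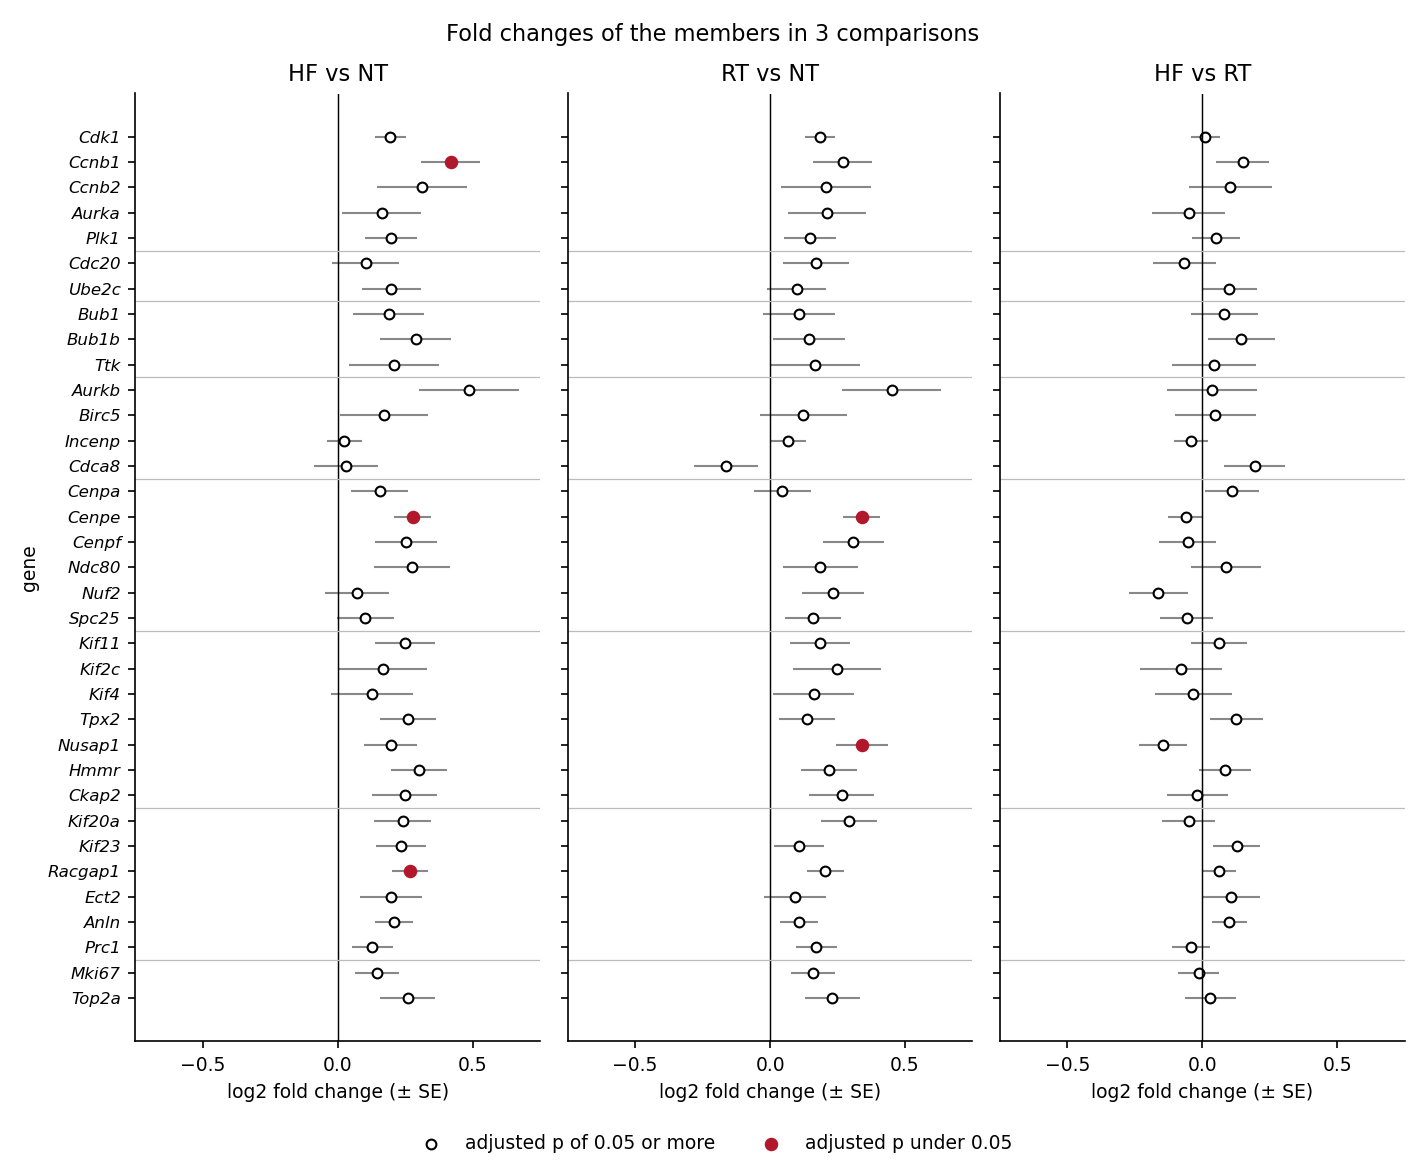
Log2 fold change ± SE (x axis) of each of the 35 members (y axis, grouped by role between grey lines) in the 3 comparisons. Filled points passed an adjusted p of 0.05: Ccnb1, Cenpe and Racgap1 in HF against NT, Cenpe and Nusap1 in RT against NT, and none in HF against RT, where points lie on both sides of 0.

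Among the 5 genes of mitotic entry, Ccnb1 (cyclin B1, the activating partner of CDK1; ENSMUSG00000041431) was higher on HF. It stood at 11.4, 10.7, 14.0, 13.8, 12.2 and 8.45 CPM in HF 1 to HF 6, at 9.66, 10.7, 11.3, 11.9, 8.96 and 11.1 CPM in RT 1 to RT 6 and at 9.08, 9.34, 8.43, 7.53 and 9.67 CPM in NT 1 to NT 5. HF 1 to HF 5 lay above every NT library, and HF 6 lay among them. The log2 fold change was 0.42 ± 0.11 (SE, adjusted p = 0.0288) for HF against NT, 0.27 ± 0.11 (0.179) for RT against NT and 0.15 ± 0.10 (0.776) for HF against RT. The HF call was lost without HF 3 (adjusted p = 0.0935), HF 4 (0.1003), HF 5 (0.0600), NT 3 (0.0814) or NT 4 (0.0957), and with limma voom (0.0574). Pseudogenes share 28.6% of the 100-base windows of its longest transcript, of which Ccnb1-ps held 2 to 18 counts per library.

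Cdk1, the kinase that drives entry into mitosis, had 39.0, 36.1, 42.3, 38.4, 38.1 and 36.1 CPM on HF, 42.7, 35.2, 37.8, 39.1, 36.9 and 36.8 CPM on RT and 34.6, 36.7, 29.998, 32.5 and 33.9 CPM on NT. The HF values overlapped NT only through NT 2, which lay above HF 2 and HF 6. It did not pass, with a log2 fold change of 0.19 ± 0.06 for HF against NT (SE, adjusted p = 0.0591) and 0.18 ± 0.06 for RT against NT (adjusted p = 0.0586), and HF against RT was 0.01 ± 0.05 (adjusted p = 0.983). It passed against NT with DESeq2 (adjusted p = 0.0325 for HF and 0.0380 for RT), with all genes of at least 1 count kept (0.0323 and 0.0411) and without NT 2 (0.0392 and 0.0304). HF against NT also passed without HF 2 (0.04995), HF 6 (0.0444) or RT 1 (0.0461), and RT against NT without RT 2 (0.0466). Cdk1 had the highest level per kilobase of exon of the 35 (average of 7.47 CPM per kb over 17 libraries) and, with a SD of 0.0838 in log2 CPM, the narrowest spread on HF.

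Plk1, a kinase that acts from entry to cytokinesis, stood at 11.8, 12.8, 14.9, 14.2, 10.9 and 9.60 CPM on HF, 12.6, 11.02, 11.1, 13.99, 11.7 and 11.3 CPM on RT and 10.2, 11.04, 10.4, 11.2 and 11.1 CPM on NT. The NT libraries lay within the HF range. Its log2 fold changes were 0.20 ± 0.10 for HF against NT (SE, adjusted p = 0.349) and 0.15 ± 0.10 for RT against NT (adjusted p = 0.476). The pseudogene Plk-ps1 held 25 to 83 counts per library and shares sequence with it. Ccnb2 (cyclin B2) and Aurka (the spindle pole kinase Aurora A) did not pass either, at 0.31 ± 0.17 and 0.16 ± 0.15 for HF against NT.

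Neither of the members that work with the anaphase-promoting complex passed the test in any comparison. Ube2c, its ubiquitin-conjugating enzyme, had 11.9, 9.86, 14.7, 11.03, 9.19 and 8.28 CPM on HF, 9.72, 9.78, 10.9, 11.1, 9.72 and 9.46 CPM on RT and 10.3, 10.02, 9.44, 8.70 and 8.80 CPM on NT. HF spanned the values of both other groups, with HF 3 highest and HF 6 lowest. The log2 fold changes of HF against NT were 0.20 ± 0.11 for Ube2c (SE, adjusted p = 0.419) and 0.10 ± 0.12 for Cdc20, the activator that the checkpoint holds in check (adjusted p = 0.781). Exons of Tnnc2 overlap 22.8% of the Ube2c exon bases, though Tnnc2 held only 0 to 3 counts per library.

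The 3 checkpoint genes, the kinases Bub1 and Ttk and the BubR1 gene Bub1b, had log2 fold changes of 0.19 to 0.29 for HF against NT, with no call. Bub1b stood at 14.9, 12.8, 16.1, 14.999, 12.4 and 7.65 CPM on HF, 11.8, 12.3, 10.9, 13.4, 10.4 and 12.5 CPM on RT and 9.33, 10.4, 11.1, 10.3 and 12.6 CPM on NT. HF 6 was the lowest of all 17 libraries, while HF 1 to HF 4 lay above every NT library. The log2 fold change of HF against NT was 0.29 ± 0.13 (SE, adjusted p = 0.319), and without HF 6 it was 0.41 (adjusted p = 0.0123).

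In the chromosomal passenger complex, the kinase gene Aurkb had the largest fold changes of the 35 against NT and no call in the fit of all libraries. It stood at 9.30, 6.93, 10.7, 11.6, 6.42 and 6.84 CPM on HF, 9.21, 7.18, 9.42, 9.22, 7.89 and 7.62 CPM on RT and 6.74, 6.57, 4.24, 4.53 and 8.80 CPM on NT. NT 3 and NT 4 were the lowest of all libraries, and NT 5 lay among the HF and RT libraries. Its log2 fold change was 0.49 ± 0.18 for HF against NT (SE, adjusted p = 0.203) and 0.45 ± 0.18 for RT against NT (adjusted p = 0.202). Both passed with all genes of at least 1 count kept (adjusted p = 0.00341 for HF and 0.00653 for RT). Without NT 5 they also passed, at 0.65 (adjusted p = 0.0337) and 0.62 (adjusted p = 0.0370). Its partners differed less: Incenp, the scaffold, by 0.02 ± 0.07 and 0.07 ± 0.07, Birc5 (survivin) by 0.17 ± 0.16 and 0.12 ± 0.16, and Cdca8 (borealin) by 0.03 ± 0.12 and -0.16 ± 0.12 (SE).

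Of the 6 kinetochore and centromere genes, Cenpe, the motor that moves chromosomes to the spindle equator (ENSMUSG00000045328), was higher on both topographies. It stood at 24.4, 22.1, 27.2, 22.3, 22.2 and 21.2 CPM on HF, 22.6, 23.9, 23.2, 26.8, 25.2 and 23.7 CPM on RT and 17.9, 20.7, 18.4, 18.8 and 20.1 CPM on NT. Every HF and every RT library lay above every NT library. On the log2 scale it differed by 0.28 ± 0.07 for HF against NT (SE, adjusted p = 0.0224), 0.34 ± 0.07 for RT against NT (adjusted p = 0.00216) and -0.06 ± 0.06 for HF against RT (adjusted p = 0.892). The HF call was lost without HF 3 (adjusted p = 0.0834), NT 3 (0.0672) or NT 4 (0.0509). Cenpf, a large protein of the outer kinetochore, reached 0.25 ± 0.11 on HF and 0.31 ± 0.11 on RT against NT, and Cenpa, the centromeric histone, 0.15 ± 0.11 and 0.05 ± 0.11. The NDC80 complex genes Ndc80, Nuf2 and Spc25 had 0.27 ± 0.14, 0.07 ± 0.12 and 0.10 ± 0.11 on HF against NT (SE), with no call.

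Among the 7 spindle genes, Nusap1, which stabilizes and bundles spindle microtubules (ENSMUSG00000027306), was higher on RT. It stood at 12.0, 10.5, 12.4, 12.0, 10.6 and 7.93 CPM on HF, 11.2, 12.0, 11.8, 12.2, 13.4 and 11.5 CPM on RT and 9.39, 9.55, 9.87, 8.29 and 10.4 CPM on NT. All RT libraries lay above all NT libraries, and HF 6 was the lowest of the 17. Exons of Oip5 overlap 4.24% of its exon bases. The fold change on the log2 scale was 0.34 ± 0.10 for RT against NT (SE, adjusted p = 0.0349), 0.20 ± 0.10 for HF against NT (adjusted p = 0.358) and -0.15 ± 0.09 for HF against RT (adjusted p = 0.742).

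Hmmr, a spindle assembly factor, had 13.2, 11.3, 14.4, 11.8, 10.6 and 10.1 CPM on HF, 12.9, 10.6, 13.3, 11.4, 10.1 and 9.42 CPM on RT and 10.4, 8.80, 8.96, 8.999 and 11.1 CPM on NT. NT 1 and NT 5 lay among the HF libraries, and the log2 fold change of HF against NT was 0.30 ± 0.10 (SE, adjusted p = 0.130). The motors Kif11, which pushes spindle poles apart, Kif2c, a microtubule depolymerase, and Kif4, a chromosome-bound motor, had 0.25 ± 0.11, 0.17 ± 0.16 and 0.13 ± 0.15 on HF against NT. Tpx2, which activates Aurora A, and Ckap2, a microtubule-associated protein, had 0.26 ± 0.10 and 0.25 ± 0.12, and none passed. Kif4 shares 15.01% of its windows with Pdzd11, which held 396 to 726 counts per library.

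Of the 6 cytokinesis genes, Racgap1, the centralspindlin GTPase activator (ENSMUSG00000023015), was higher on HF. It stood at 28.0, 28.8, 34.4, 29.998, 29.3 and 25.0 CPM on HF, 27.9, 25.3, 28.2, 30.5, 29.4 and 26.5 CPM on RT and 25.3, 25.3, 24.5, 21.4 and 25.0 CPM on NT. HF and NT overlapped only through HF 6. The log2 fold change was 0.27 ± 0.07 for HF against NT (SE, adjusted p = 0.0262), 0.20 ± 0.07 for RT against NT (adjusted p = 0.0841) and 0.06 ± 0.06 for HF against RT (adjusted p = 0.889). The HF call was lost without HF 3 (adjusted p = 0.0971), HF 4 (0.0662), NT 3 (0.0557) or NT 4 (0.0974).

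Kif23, the motor that forms centralspindlin with Racgap1, had 0.24 ± 0.09 on HF and 0.11 ± 0.09 on RT against NT. Anln (anillin, the contractile ring scaffold) had 0.21 ± 0.07 and 0.11 ± 0.07, and Ect2, which activates RhoA at the cell equator, 0.20 ± 0.11 and 0.09 ± 0.11. Prc1, the antiparallel microtubule bundler of the midzone, had 0.13 ± 0.08 and 0.17 ± 0.08 (SE), and none of these passed the test. Rccd1 overlaps 11.1% of the Prc1 exon bases. The midzone motor Kif20a had 0.24 ± 0.11 on HF against NT (SE, adjusted p = 0.272) and lay at 14.8 to 15.5 CPM on RT, against 10.4 to 14.0 CPM on NT. Its counts are uncertain, since 29.3% of its exon bases overlap Cdc23, which held 964 to 1621 counts per library, and the libraries do not keep strand.

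The chromosome proteins were the members with the most counts. Top2a, the topoisomerase that untangles sister chromatids, had 61.3, 51.8, 67.7, 65.5, 50.2 and 43.3 CPM on HF, 52.1, 53.4, 54.7, 62.7, 57.5 and 52.3 CPM on RT and 45.6, 49.0, 48.6, 41.9 and 51.4 CPM on NT. HF overlapped NT through HF 5 and HF 6, whereas all RT libraries lay above all NT libraries. Its log2 fold change was 0.26 ± 0.10 for HF against NT (SE, adjusted p = 0.239) and 0.23 ± 0.10 for RT against NT (adjusted p = 0.256).

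Mki67, the coat of mitotic chromosomes whose product Ki-67 marks cycling cells, stood at 50.8, 51.0, 66.6, 55.4, 49.4 and 41.6 CPM on HF, 50.7, 51.0, 51.5, 56.6, 52.8 and 55.0 CPM on RT and 45.0, 51.1, 46.0, 45.0 and 50.3 CPM on NT. The 3 groups overlapped, and HF 6 lay below all NT libraries. On the log2 scale it differed by 0.14 ± 0.08 for HF against NT (SE, adjusted p = 0.451), 0.16 ± 0.08 for RT against NT (adjusted p = 0.332) and -0.01 ± 0.08 for HF against RT (adjusted p = 0.985).

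**Figure D4:**
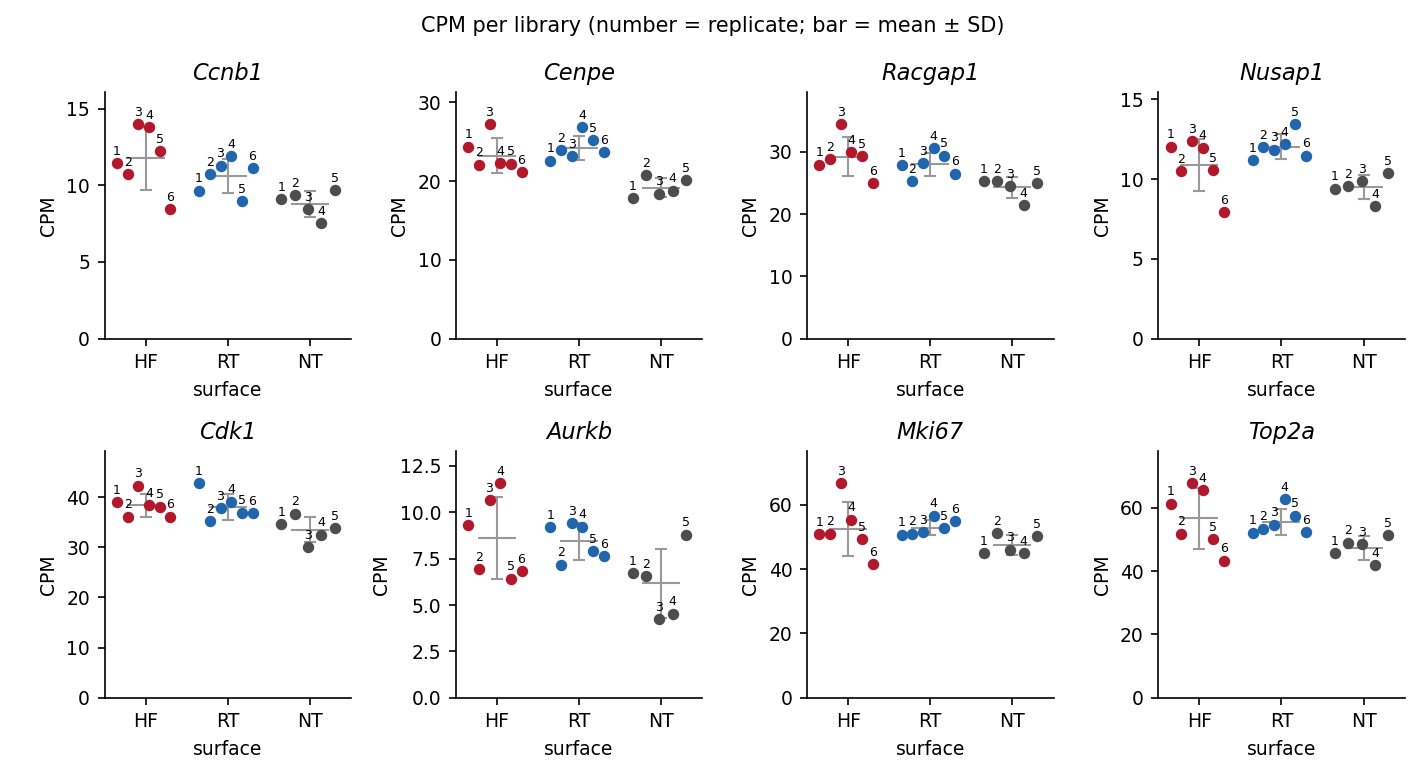
CPM per library (y axis, from 0) on HF, RT and NT for 8 members; numbers are replicates and grey bars mean ± SD. All HF and RT libraries lie above all NT libraries for Cenpe. All RT libraries do so for Nusap1, Top2a and, by a very small margin (25.33 against 25.32 CPM), Racgap1 as well. HF 6 falls among or below the NT libraries in every panel except that of Cenpe.

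Per kilobase of exon, which allows levels to be set side by side between genes, the order was led by Cdk1 (7.47), Cdc20 (6.63), Top2a (5.93) and Incenp (5.65 CPM per kb, averages over 17 libraries). It ended with Cenpf (1.07), Ttk (0.785) and Ndc80 (0.705 CPM per kb). Lengths are those of all annotated exons of a gene merged, so genes with long alternative ends are placed lower.

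With all libraries, the spread within a group was widest on HF. The median SD of log2 CPM over the 35 members was 0.268 on HF, 0.132 on RT and 0.153 on NT. Over all genes tested it was 0.107, 0.104 and 0.132, and over the 6529 genes within the members' range of levels 0.109, 0.107 and 0.129. HF was the widest of the 3 groups for 27 of the 35 members, against 25.7% of all genes tested. The widest member on HF was Kif4 with a SD of 0.432, and the narrowest were Cdk1 (0.0838) and Incenp (0.109). Without HF 3 and HF 6 the median SD on HF was 0.146 over the members and 0.0962 over all genes tested. HF was then the widest for 15 members, against 22.4% of all genes tested. These values describe 1 set of libraries, since the members move together within a library and are not independent of each other.

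HF 3 and HF 6 marked the ends of that spread. HF 3 lay above HF 6 for all 35 members, against 50.1% of all genes tested, with ratios from 1.04 (Ndc80) to 2.48 (Kif4) and a median of 1.60. HF 3 was the highest of the 17 libraries for 23 members (5.46% of all genes), and HF 6 the lowest for 16 (7.47% of all genes). These 2 libraries were picked as the highest and lowest in the summed level of the same 35 genes. The member counts therefore follow in part from that choice, which the shares over all genes do not share. For Kif4 the 6 HF libraries held 11.1, 9.86, 13.7, 10.5, 9.87 and 5.52 CPM. For Aurka they held 10.8, 6.71, 11.2, 8.46, 7.40 and 5.17 CPM. In both genes HF 6 lay below every RT and every NT library.

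HF 3 and HF 6 had total counts of 17.2 and 17.4 M and mitochondrial shares of 2.18% and 2.21%. They had 22387 and 22087 genes detected, and HF 6 had the fewest of the HF libraries. Over tested genes with at least 20 counts in the pair, they differed by a chi-square per gene of 8.23, the largest among pairs of HF libraries, where the other 14 pairs gave 2.63 to 5.70. The pairs of NT 5 with another NT library gave 7.93 to 11.2. The summed level of 88 other mitosis genes was 1685 CPM in HF 3 and 1411 CPM in HF 6, and that of 44 DNA replication genes 951 and 790 CPM.

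**Figure D5:**
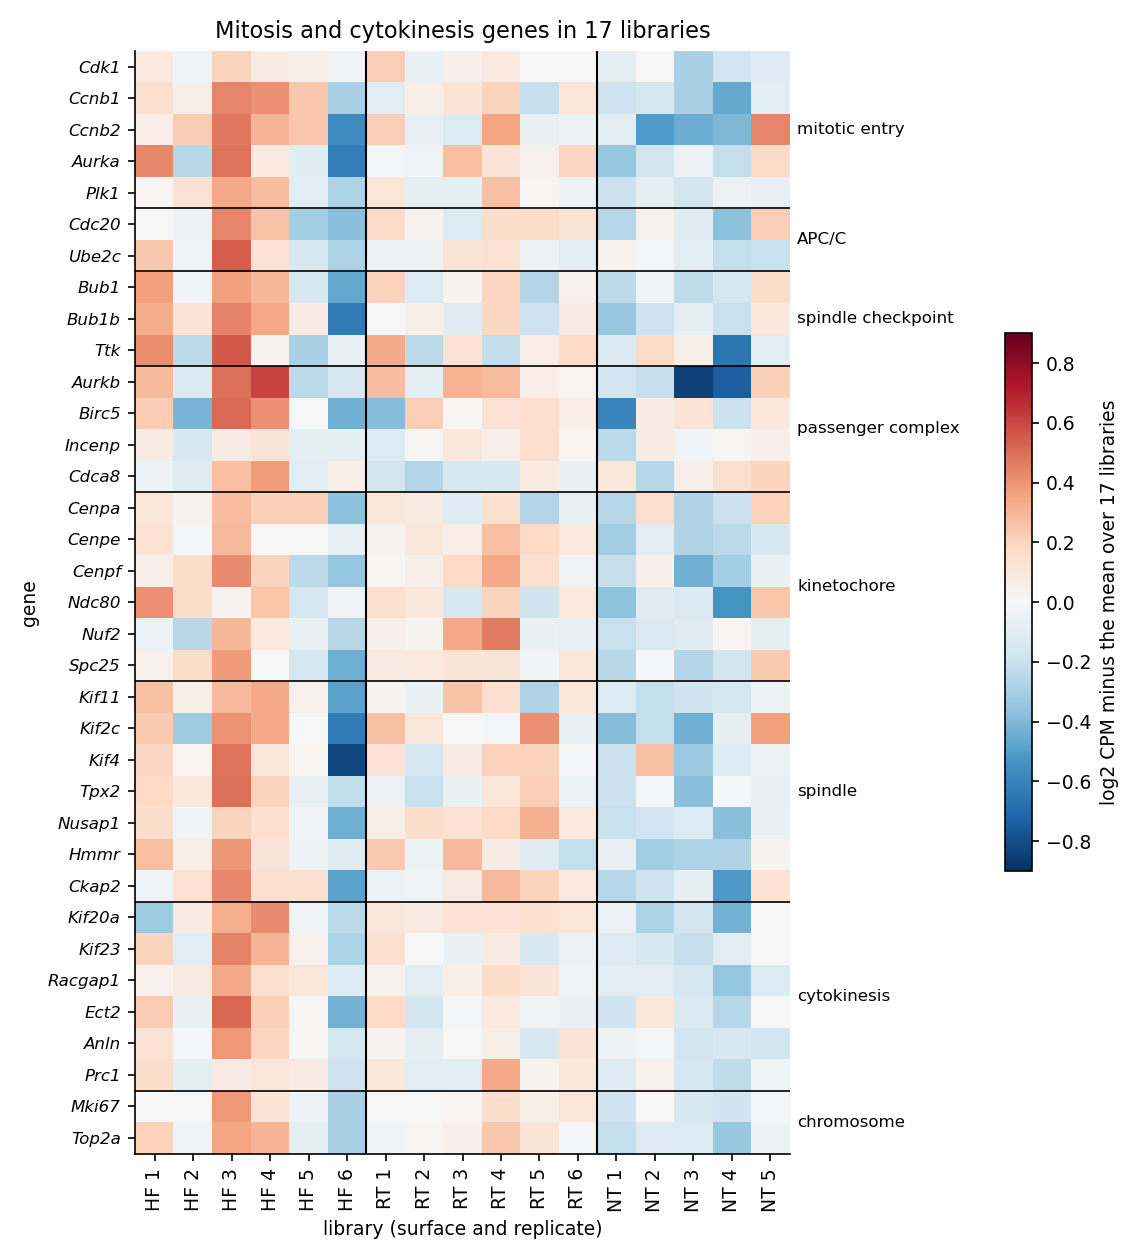
Log2 CPM minus its mean over all 17 libraries (colour) for the 35 members (y axis, by role) in each library (x axis, HF, RT, NT). HF 3 is red in nearly every row and HF 6 blue in most, while the RT libraries lie closer to each other and most NT squares are blue.

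Genes of mitosis outside the 35 were taken from a separate list, and they cannot be taken as independent of each other either. Of 88, 4 were higher on HF than on NT, beside 1.5% of all genes tested, and 0 were lower. Of the 88, 75 had a positive log2 fold change, beside 49% of all genes, and the median was 0.17. Those 4 were Iqgap3, a scaffold of the cortex (0.40 ± 0.09, SE, adjusted p = 0.00821), Gtse1, a microtubule-associated protein (0.38 ± 0.10, 0.0356), Psrc1, a spindle protein (0.25 ± 0.07, 0.0399), and Nek2, a centrosomal kinase (0.43 ± 0.12, 0.0464). The count was 1 without HF 3, HF 4, NT 2, NT 3 or NT 4, 2 without HF 5, RT 3, RT 4 or RT 6, 8 without NT 5, 9 without HF 6 and 1 without HF 3 and HF 6 together.

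On RT against NT, 3 of these 88 were higher, beside 2.53% of all genes tested. A positive value was found for 72, beside 49.1% of all genes, and the median was 0.15. Those 3 were Iqgap3 (0.31 ± 0.09, SE, adjusted p = 0.0355), Arhgap11a, a GTPase-activating protein for RhoA (0.27 ± 0.07, 0.0262), and Aspm, a spindle pole protein (0.33 ± 0.09, 0.0348). Their RT libraries lay above all NT libraries, as for 2.18% of all genes. Because these 3 were picked by the test on the same libraries, that share is no measure of how unusual they are. The count was 1 without RT 1, RT 3, RT 6, NT 1 or NT 2 and 0 without RT 4 or NT 3. HF against RT gave 0 of 88, and 0 with DESeq2 and limma voom. At an unadjusted p under 0.05, 3 of the 88 were higher and 1 lower, beside 3.74% and 4.26% of all genes tested.

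DNA replication genes, which act in the preceding phase of the cycle, gave 4 of 44 higher on HF than on NT, beside 1.5% of all genes tested, with a median log2 fold change of 0.14: Uhrf1, Pole, Mcm5 and Mcm2, by 0.35 ± 0.07, 0.38 ± 0.09, 0.32 ± 0.08 and 0.24 ± 0.07 (SE). On RT against NT, 2 were higher, beside 2.53% of all genes tested: Uhrf1 (0.29 ± 0.07) and Rrm2 (0.37 ± 0.10), with a median of 0.05. On HF against RT 0 passed by edgeR. At an unadjusted p under 0.05, 2 of the 44 were higher, beside 3.74% of all genes tested. The count for HF against NT was 1 without HF 3 or HF 4, 2 without HF 5, NT 1, NT 2 or NT 3, 7 without NT 5 and 8 without HF 6. Without HF 3 and HF 6 together it was 4 (Chaf1a, Mcm5, Rrm2 and Uhrf1). For RT against NT it was 1 without RT 1, RT 3, RT 4, NT 1 or NT 3, 4 without NT 2, 5 without HF 6 and 5 without HF 3 and HF 6 together.

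The regulators of this program showed no call in the main edgeR fit among 22 tested genes in any comparison, also without HF 3 and HF 6. The listed gene Lin54 had no matching identifier and was not tested. Other fits called Rbbp4, a MuvB subunit, lower on HF than on NT (DESeq2, total counts alone, without NT 4 or without NT 5) and Foxm1 higher (all genes of at least 1 count kept). At an unadjusted p under 0.05, 2 were higher and 2 lower on HF against NT, beside 7.61% and 6.63% of all genes tested. On RT against NT 3 were higher and 1 lower, beside 9.11% and 8%. On HF against RT there were 0, beside 3.74% higher and 4.26% lower. Foxm1 averaged 25.3 ± 3.83 CPM on HF, 24.3 ± 1.80 CPM on RT (SD, n = 6 each) and 21.3 ± 1.19 CPM on NT (SD, n = 5), with 0.25 ± 0.08 for HF against NT (SE, adjusted p = 0.0859) and 0.20 ± 0.08 for RT against NT (adjusted p = 0.172). Mybl2, which encodes B-MYB, had 0.25 ± 0.15 (adjusted p = 0.495) and 0.06 ± 0.15 (adjusted p = 0.897). E2f1 had -0.12 ± 0.05 on HF against NT (SE, adjusted p = 0.199). Its HF libraries lay below all NT libraries, beside 0.934% of all genes that were lower without overlap. E2f1 is 1 gene picked from the 22, so that share is no measure of how unusual it is.

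Among markers of mesangial cells and pericytes, Acta2 was the 1 of 4 tested that passed, on HF and on RT against NT. Of all genes tested, 1.5% were higher on HF and 2.53% on RT. The summed level of 7 such genes was 809 to 886 CPM on HF, 780 to 857 CPM on RT and 680 to 776 CPM on NT. Acta2 (smooth muscle actin) averaged 364 ± 42.2 CPM on HF, 363 ± 23.5 CPM on RT (SD, n = 6 each) and 261 ± 36.7 CPM on NT (SD, n = 5). It was higher by 0.48 ± 0.10 on HF (SE, adjusted p = 0.0171) and by 0.48 ± 0.10 on RT (adjusted p = 0.0121) against NT. Pdgfrb, which defines those cells, averaged 478 ± 14.0, 457 ± 8.15 and 478 ± 16.3 CPM on HF, RT and NT, with overlapping HF and NT libraries, and Ren1 was listed at 0. Without Acta2, the other 3 tested genes summed to 467 to 499 CPM on HF, 453 to 474 CPM on RT and 458 to 499 CPM on NT. Among the tubule markers Havcr1 averaged 19.9 ± 6.32 CPM on HF, 16.1 ± 4.74 CPM on RT and 3.72 ± 1.07 CPM on NT, and was higher by 2.44 ± 0.31 on HF (SE, adjusted p = 0.000618) and 2.13 ± 0.31 on RT (adjusted p = 0.00119), while the summed level of the 10 tubule genes overlapped between groups (1481 to 1840, 1547 to 1733 and 1428 to 1787 CPM). Summed podocyte markers ran from 1458 to 1516 CPM on HF, 1473 to 1516 CPM on RT and 1451 to 1494 CPM on NT. Of 9 tested, 1 was higher and 1 lower on HF than on NT, beside 1.5% and 0.829% of all genes tested. On RT against NT 1 was lower, beside 1.44% of all genes. Wt1, a podocyte transcription factor, averaged 103 ± 5.22 CPM on HF, 96.9 ± 2.96 CPM on RT and 115 ± 3.02 CPM on NT (SD, n = 6, 6 and 5). It was lower on both topographies, with log2 fold changes against NT of -0.16 ± 0.04 on HF (SE, adjusted p = 0.0113) and -0.24 ± 0.04 on RT (adjusted p = 6.16e-05). Actn4, an actin crosslinker, averaged 671 ± 24.7, 654 ± 16.3 and 615 ± 13.8 CPM and was higher on HF than on NT by 0.13 ± 0.03 (SE, adjusted p = 0.0285), while RT against NT was 0.09 ± 0.03 (adjusted p = 0.132). Without HF 3 and HF 6, Wt1 (adjusted p = 0.0197), Acta2 (0.0320) and Havcr1 (0.00377) still passed in HF against NT, and Actn4 did not (0.0972). The part of these markers in the results on the 35 members was not tested.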

How the data were processed

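Poly-A RNA of 17 libraries was read in pairs from non-directional libraries, per the labels' protocols. The deposited table gives a raw count for each gene in each library, unnormalized, in whole numbers. HISAT2 2.0.5, featureCounts 1.5.0-p3, CASAVA and the mouse build GRCm39 are named, per the submitters' processing notes; the annotation release, strand setting and filters are not given in the sources used here. Without strand, reads of overlapping genes cannot be told apart.

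Gene symbols, exon lengths and overlaps came from GENCODE M21 (GRCm38), which named 52073 of 56748 identifiers; the others held 0.580% of the counts. Promoters came from RefSeq (GRCm38.p6). After filterByExpr and TMM scaling, edgeR 4.0.16 was used (quasi-likelihood F test, robust, 1 mean per group over all 17 libraries, no covariate). Two-sided p-values were adjusted (Benjamini-Hochberg) over the 15196 genes tested, and the threshold was 0.05. The common biological coefficient of variation was 0.0603. Each standard error is the log2 fold change over the root of its F statistic, and CPM rest on TMM-scaled totals. Shared sequence is the share of 100-base windows of the longest transcript found in transcripts of other genes. Log2 CPM for spreads used a prior count of 2. The fit was run on simulated data in which genes varied independently of each other, unlike the members. Its only requirement was that most genes with the largest simulated fold change be recovered. Passing it therefore says nothing about changes as small as those of the members.

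The members and the gene lists were chosen with earlier results of these data known. Every member past the threshold is named, as are Mki67, Top2a, Ccnb1, Cdk1, Aurkb and Plk1 and, of each role, the member with the smallest p for HF against NT; others appear by their fold change or as extremes. No 2 libraries of the same group agreed within sampling noise (lowest chi-square per gene 2.63). Pairs across groups were not compared in this way. Alternatives were DESeq2 1.42.0, limma 3.58.1 (voom), other scalings and filters, 2-group fits, a replicate block and fits without single libraries.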

Additional observations from a re-analysis of the deposited data

Results flagged for a closer look

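Among 108 sets of values (each member and their sum in each group), 2 held a library far from the others of its group, by the gap to its nearest neighbour relative to the group's range. Chance gives such a gap in about 1 in 20 sets. Spc25, a subunit of the NDC80 kinetochore complex, stood at 14.1 CPM in RT 5, below the nearest RT library at 15.2 CPM and the highest at 15.6 CPM. Racgap1 stood at 21.4 CPM in NT 4, below the nearest NT library at 24.5 CPM and the highest at 25.3 CPM. Without NT 4, Racgap1 did not pass the test in HF against NT (edgeR adjusted p = 0.0974).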

How the results depend on the processing

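The member counts were small, and 1 or a few libraries moved them. Members changed in HF against NT numbered 3, but 7 with genes of at least 1 count, 0 in a fit of only those 2 groups, 7 with libraries numbered 1 to 5 and 0 to 9 without single libraries. In RT against NT they numbered 2, but 7 with genes of at least 1 count, 5 in the fit of those 2 groups, 4 without HF 3 and HF 6 and 1 to 3 without single libraries; in HF against RT they were 0 under every alternative run. Other mitosis genes changed in HF against NT numbered 4, but 2 with total counts alone, 10 with genes of at least 1 count, 8 with DESeq2, 1 in the 2-group fit, 1 without HF 3 and HF 6 and 1 to 9 without single libraries; in RT against NT they numbered 3, and 0 to 3 without single libraries. DNA replication genes changed in HF against NT numbered 4, but 8 with genes of at least 1 count, 1 in the 2-group fit, 8 with libraries numbered 1 to 5 and 1 to 8 without single libraries. In RT against NT they numbered 2, but 5 with genes of at least 1 count, 4 with DESeq2, 4 with libraries numbered 1 to 5, 5 without HF 3 and HF 6 and 1 to 5 without single libraries. Regulators changed in HF against NT numbered 0, but 1 with total counts alone, 1 with genes of at least 1 count, 1 with DESeq2 and 0 to 1 without single libraries; in RT against NT and HF against RT they were 0 under every alternative run. All genes changed in HF against NT numbered 354, but 597 with genes of at least 1 count, 564 with DESeq2, 200 in the 2-group fit, 197 without HF 3 and HF 6 and 202 to 604 without single libraries. In HF against RT they numbered 32, but 148, 84 and 113 under the same first 3 alternatives, 15 with libraries numbered 1 to 5 and 14 to 89 without single libraries; in RT against NT they numbered 603, and 365 to 806 without single libraries. Summed member levels kept their sign for HF and RT against NT (log2 ratios of 0.14 to 0.27 and 0.16 to 0.21 without single libraries), and ran from -0.04 to 0.09 for HF against RT. In the 2-group fit, the HF calls of Ccnb1, Cenpe and Racgap1 had adjusted p of 0.0615, 0.0531 and 0.0581.

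The replicate block, in which same-numbered libraries are treated as pairs, called 5 members in HF against NT (Ccnb1, Cdk1, Cenpe, Hmmr and Racgap1), 5 in RT against NT and 0 in HF against RT. It called 11 and 7 other mitosis genes and 8 and 6 DNA replication genes in HF and RT against NT, 2 regulators in HF against NT (Foxm1 and Rbbp4), and of all genes 637 in HF against NT, 995 in RT against NT and 125 in HF against RT. Among 16 pairs of libraries with the same replicate number, 2 had a correlation of deviations over 0.1 (range -0.0111 to 0.193). Of the 17 libraries, 8 correlated best with one of the same number, among the libraries of the other groups. Each had at most 2 same-numbered libraries there to match. Whether the numbers mark pairs was not tested, and the sources used here do not say. The main fit did not pair them.

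The median SD of the members on HF was 0.268, but 0.146 without HF 3 and HF 6. Alternatives for DNA replication genes and regulators, and those without HF 3 and HF 6, were chosen after seeing the data. Values of HF against RT near 0 changed sign. Mki67 had a log2 fold change of 0.06 with libraries numbered 1 to 5, and Cdk1 -0.00443 without HF 3 and HF 6. Without single libraries the ranges were -0.066 to 0.11 for Aurkb, -0.018 to 0.044 for Cdk1, -0.094 to 0.045 for Mki67, -0.00855 to 0.11 for Plk1, -0.028 to 0.10 for Top2a and -0.00795 to 0.17 for Ube2c. The causes were not tested. The lowest members held 41 counts in a library, which limits their precision.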
